A study of Homo sapiens with 6 samples.

Results

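The AP-1 family genes were described here as 10 genes of the table of 62703 genes, chosen by name: the Fos subfamily (*FOS*, *FOSB*, *FOSL1* and *FOSL2*), the Jun subfamily (*JUN*, *JUNB* and *JUND*) and the related genes *ATF3*, *BATF3* and *MAFF*. RNA was sequenced from PANC-1, an established line of human ductal pancreatic cancer, collected in the logarithmic phase of growth. The wild-type cells (DKK1-SE+/+) were compared with cells in which CRISPR/Cas9 had removed both copies of e1, an enhancer within the super-enhancer of *DKK1* (DKK1-SE-/-). Each group had 3 biological replicates. The DKK1-SE-/- samples came from 1 subclone, and the p-values measure the spread between cultures of these lines. In *CDKN2A*, a tumour suppressor gene chosen after its values were seen, the samples labelled DKK1-SE-/- went against the line that their labels name. PANC-1 is known for the loss of *CDKN2A*, and expected counts of this gene were 0, 0 and 0 across DKK1-SE+/+ replicates 1 to 3, against 91, 132 and 54 across DKK1-SE-/- replicates 1 to 3. In all, 32 genes had at most 3 counts over the DKK1-SE+/+ samples together and at least 20 in every DKK1-SE-/- sample, and 4 genes had the reverse. Whether the samples labelled DKK1-SE-/- hold edited PANC-1 cells, other cells or a mixture was not tested, so every difference below is between samples labelled DKK1-SE-/- and DKK1-SE+/+, and the origin of the cells, the subclone and the deletion cannot be told apart. The expected counts of a sample summed to between 16475810 and 21822314.

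AP-1 is a transcription factor built from pairs of bZIP proteins, which hold each other through a leucine zipper and bind DNA with the basic region beside it. Jun proteins pair with each other or with Fos proteins, while Fos proteins need a partner such as Jun. Many of the genes are immediate early genes, switched on within minutes by growth factors, serum or stress, and *FOSL1* is known for high levels in pancreatic cancers with an active Ras pathway.

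The comparison asked how the family's RNA differed between samples labelled with and without e1, an element that itself holds AP-1 motifs. The segment between the expected Cas9 cuts, placed from the guide sequences, spanned chr10:52442315-52444367 of hg38 (2053 bases). It began 124 kb beyond the end of *DKK1*. No gene of GENCODE version 44 overlapped it, so it was intergenic. It held 4 matches to TGANTCA, a loose form of the AP-1 motif with any base in the middle, which reads the same on both strands. Of 64853 windows of this length on chromosome 10, 0.81% held at least as many matches. The windows were not matched to the GC content of the segment, 36.3%. The matches lay at chr10:52443511-52443517, chr10:52443747-52443753, chr10:52443977-52443983 and chr10:52444050-52444056. They are shown on the plus strand, because they lie between the expected cuts, with the motif in capitals.
site 1: ctctggggaaaTGAATCAtgctattatct
site 2: agtgtggtgccTGATTCAtagcactatac
site 3: agcataaaaagTGAGTCAttaaagttagg
site 4: cttaaaatagaTGAATCAtatttttgagg
A match describes the letters of the reference genome and is not a measurement of binding.

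*DKK1*, which encodes a secreted Wnt antagonist, is the gene that the super-enhancer is named after. Its level does not tell an edited line from another line. TPM, a level per length scaled to the same total in every library, was 229, 246 and 199 across DKK1-SE+/+ replicates 1 to 3, against 66.8, 79.8 and 82.7 across DKK1-SE-/- replicates 1 to 3. The groups did not overlap. The log2 fold change was -1.45 ± 0.11 (SE), with an adjusted p of 6.16e-06. This and every adjusted p below came from the quasi-likelihood test of edgeR, adjusted over all tested genes by the method of Benjamini and Hochberg.

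All 10 members passed the filter on low counts and were among the 15179 genes tested. Of the 10 members, 4 were called higher in DKK1-SE-/- cells at an adjusted p under 0.05 (*ATF3*, *FOSB*, *MAFF* and *BATF3*), where 19.8% of all tested genes were called higher. None was called lower, where 19.5% of all tested genes were, and 0 members were lower at an unadjusted p under 0.05 in edgeR or called lower in DESeq2. With an offset for GC content in edgeR, however, 2 members (*JUN* and *JUNB*) were called lower. The median log2 fold change of the members was 0.65, and that of all tested genes was 0.03. The members' median was 0.19 without DKK1-SE-/- replicate 1 and 0.39 with the GC-content offset, in a range of 0.19 to 0.83 over the alternatives. In bulk RNA, fewer cells with a transcript and less of it per cell cannot be told apart. With an unadjusted p under 0.05 and a log2 fold change of 1.2 or more in size, *ATF3*, *FOSB* and *MAFF* were called higher, 3 of 10 members against 4.96% of all tested genes. The CPM (counts scaled by library) of 4 members did not overlap between the groups and were higher in DKK1-SE-/- cells, which was so for 26.2% of all tested genes.

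**Figure D1:**
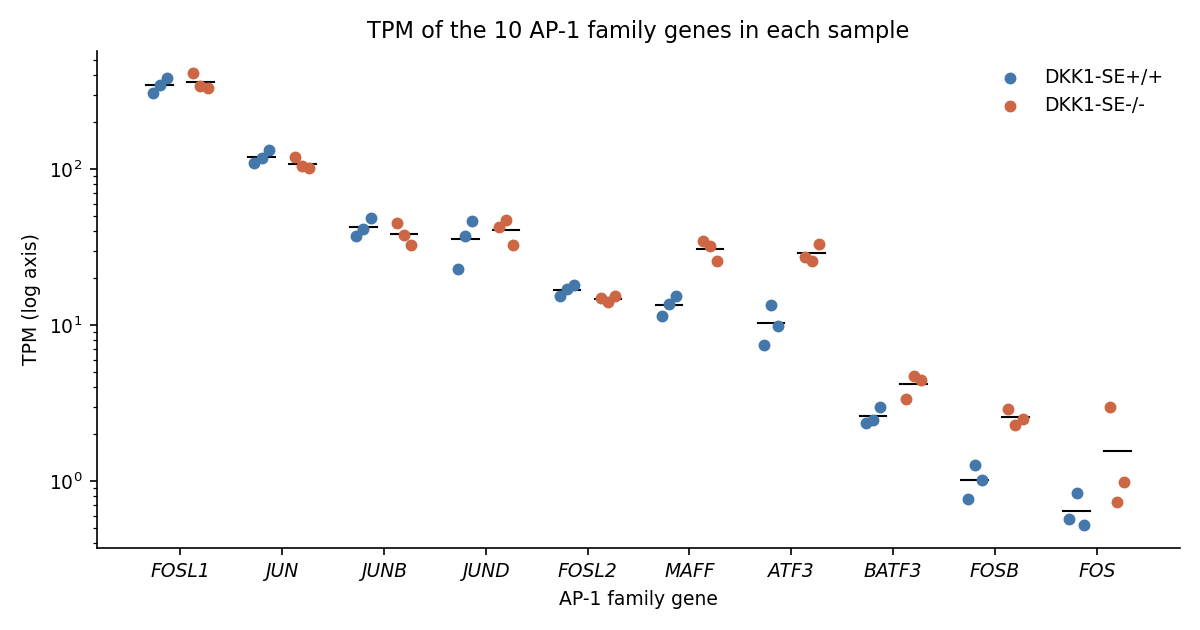
TPM of each gene in each sample, on a log axis. Points are samples (replicates 1 to 3 from left to right within a group), and lines are group means. The groups of *MAFF*, *ATF3*, *BATF3* and *FOSB* stand apart, with DKK1-SE-/- higher. Those of *FOSL2* also stand apart in TPM, with DKK1-SE-/- lower. *FOSL1* is at 308 TPM or more in every sample.

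The Fos subfamily differed widely in level. *FOSL1* encodes Fra-1 and lies on the minus strand at chr11:65892049-65900573. TPM values were 308, 345 and 385 across DKK1-SE+/+ replicates 1 to 3, against 411, 341 and 331 across DKK1-SE-/- replicates 1 to 3. The groups overlapped, with DKK1-SE-/- replicate 1 the highest sample. Its log2 fold change was 0.23 ± 0.14 (SE), with an adjusted p of 0.196 by the edgeR test. Without DKK1-SE-/- replicate 3 it was 0.32, with an adjusted p of 0.0485 by the same test, and the adjusted p over all alternatives ran from 0.0485 to 0.978. The log2 fold change was 0.07 without DKK1-SE-/- replicate 1, 0.13 without DKK1-SE+/+ replicate 1, 0.06 in limma on log2(TPM + 1) and 0.0038 with a GC-content offset. *FOSL1* was thus the most abundant member in every sample, and among the alternatives it was called higher only without DKK1-SE-/- replicate 3.

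*FOSL2* encodes Fra-2 and lies at chr2:28392448-28417317. TPM values were 15.4, 16.9 and 18.0 across DKK1-SE+/+ replicates 1 to 3, against 14.9, 14.0 and 15.3 across DKK1-SE-/- replicates 1 to 3. In TPM every DKK1-SE-/- sample was below every DKK1-SE+/+ sample, whereas in CPM the groups overlapped. The log2 fold change from the counts was -0.03 ± 0.11 (SE), with an adjusted p of 0.833 by the edgeR test, and it changed sign (0.02) without DKK1-SE+/+ replicate 3. Within *FOSL2*, the antisense *FOSL2-AS1* had at most 3 counts in a sample and the long noncoding ENSG00000270640 had 0.

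*FOSB*, an immediate early gene, lies at chr19:45467995-45475179. Expected counts were 38, 36 and 33 across DKK1-SE+/+ replicates 1 to 3, against 137, 99 and 121 across DKK1-SE-/- replicates 1 to 3. Every DKK1-SE-/- sample was above every DKK1-SE+/+ sample, at a low level. Its TPM was 1.02 ± 0.25 (SD, n = 3) in DKK1-SE+/+ cells and 2.56 ± 0.319 (SD, n = 3) in DKK1-SE-/- cells. *FOSB* was higher by a log2 fold change of 1.86 ± 0.24 (SE), with an adjusted p of 0.000218 by the edgeR test. The log2 ratio of its mean TPM was 1.33, and over the alternatives its log2 fold change ran from 0.82 to 2.04. *ERCC1*, a DNA repair gene on the opposite strand, overlaps *FOSB*, and whether the counting used strand is not given in the sources used here, so reads of the 2 genes cannot be told apart. *ERCC1* had expected counts of 1562 to 2748, a log2 fold change of -0.16 and an adjusted p of 0.296 by the edgeR test.

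*FOS*, the founding Fos gene, lies at chr14:75278826-75282230. Expected counts were 13, 8 and 14 across DKK1-SE+/+ replicates 1 to 3, against 35, 16 and 11 across DKK1-SE-/- replicates 1 to 3. The groups overlapped, and DKK1-SE-/- replicate 1 alone was high. The log2 fold change was 0.97 ± 0.51 (SE), with an adjusted p of 0.151 by the edgeR test. Without DKK1-SE-/- replicate 1 the log2 fold change was 0.24, with an adjusted p of 0.742 by the same test, the highest over the alternatives, where the lowest was 0.0612.

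The 3 Jun genes each have a single exon. *JUN* lies on the minus strand at chr1:58776845-58784048. TPM values were 109.7, 118 and 132 across DKK1-SE+/+ replicates 1 to 3, against 119, 104 and 101 across DKK1-SE-/- replicates 1 to 3. The groups overlapped. For this gene the log2 fold change was 0.00 ± 0.12 (SE), with an adjusted p of 0.994 by the edgeR test, and -0.25 with an adjusted p of 0.0204 by the same test with a GC-content offset. With the replicate block and the offset together it was again -0.25, but not called (adjusted p of 0.0683 by edgeR, range over the alternatives 0.0204 to 0.988). The noncoding *LINC01135*, which starts head to head with *JUN*, had expected counts of 1 to 9.48.

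*JUNB* lies at chr19:12791486-12793315. TPM values were 37.4, 41.4 and 48.7 across DKK1-SE+/+ replicates 1 to 3, against 45.3, 37.8 and 32.6 across DKK1-SE-/- replicates 1 to 3. The groups overlapped. The log2 fold change was 0.03 ± 0.16 (SE), with an adjusted p of 0.905 by the edgeR test, and -0.35 with an adjusted p of 0.00666 by the same test with a GC-content offset. *HOOK2* overlaps *JUNB* on the opposite strand, with expected counts of 101 to 166, a log2 fold change of -0.29 and an adjusted p of 0.221 by the edgeR test.

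*JUND* lies on the minus strand at chr19:18279694-18281622. TPM values were 22.8, 37.3 and 46.5 across DKK1-SE+/+ replicates 1 to 3, against 42.7, 47.2 and 32.6 across DKK1-SE-/- replicates 1 to 3. Both groups were spread widely and overlapped. Its log2 fold change was 0.37 ± 0.23 (SE), with an adjusted p of 0.231 by the edgeR test. It was 0.58 without DKK1-SE-/- replicate 3, with an adjusted p of 0.0167, and -0.05 with a GC-content offset, with an adjusted p of 0.776, both by edgeR. It was 0.13 without DKK1-SE-/- replicate 1 and 0.19 without DKK1-SE+/+ replicate 1, and not called in either. The sign for *JUND* thus changed with the offset, and its call with 1 library. *MIR3188*, head to head with *JUND*, had 0 counts.

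*ATF3*, a stress-induced bZIP factor, lies at chr1:212565334-212620777. Expected counts were 188, 173 and 171 across DKK1-SE+/+ replicates 1 to 3, against 540, 677 and 586 across DKK1-SE-/- replicates 1 to 3. The groups were far apart compared with the spread within each. Its TPM was 10.3 ± 3.03 (SD, n = 3) in DKK1-SE+/+ cells and 28.8 ± 3.99 (SD, n = 3) in DKK1-SE-/- cells. *ATF3* was higher by a log2 fold change of 1.87 ± 0.13 (SE), with an adjusted p of 3.29e-06 by the edgeR test.

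*BATF3*, a bZIP factor known from dendritic cells, lies on the minus strand at chr1:212686417-212699840, 65.6 kb from *ATF3*. Expected counts were 25, 16 and 29 across DKK1-SE+/+ replicates 1 to 3, against 31, 54 and 40 across DKK1-SE-/- replicates 1 to 3. Every DKK1-SE-/- sample was higher, by a small margin in replicate 1. The log2 fold change was 0.94 ± 0.31 (SE), with an adjusted p of 0.0315 by the edgeR test. The call was lost in the edgeR test without DKK1-SE+/+ replicate 1 (adjusted p of 0.108), DKK1-SE+/+ replicate 2 (0.11) or DKK1-SE-/- replicate 2 (0.122), and over all alternatives the adjusted p ran from 0.024 to 0.122. It was also lost in edgeR with a replicate block (adjusted p of 0.0613) and in limma on log2(TPM + 1) and log2(TPM + 0.1) (0.0596 and 0.067). Of the 14 tested genes within 1 Mb of *ATF3*, members left out, 0 were called higher by edgeR and 5 lower (median log2 fold change -0.30), and of the 12 around *BATF3*, 0 were called higher and 3 lower (-0.25). Such genes were called higher in 17 of 47 cases around *FOSB* (median 0.27) and 13 of 47 around *MAFF* (0.25), and lower in 2 and 1. Around the members that were not called, the counts called higher were 35 of 88 for *FOSL1* (0.37), 15 of 58 for *JUND* (0.28), 9 of 53 for *JUNB* (0.18), 4 of 17 for *FOSL2* (-0.23), 1 of 26 for *FOS* (-0.0067) and 0 of 5 for *JUN* (-0.27). Those called lower were 3, 2, 1, 3, 5 and 1 in the same order. Of all tested genes, 19.8% were called higher and 19.5% lower.

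*MAFF*, a small Maf factor without a transactivation domain, lies at chr22:38200767-38216507. TPM values were 11.4, 13.7 and 15.3 across DKK1-SE+/+ replicates 1 to 3, against 34.3, 32.0 and 25.7 across DKK1-SE-/- replicates 1 to 3. The groups did not overlap. *MAFF* was higher by a log2 fold change of 1.35 ± 0.17 (SE), with an adjusted p of 0.000161 by the edgeR test. *PLA2G6* overlaps *MAFF* on the opposite strand, with expected counts of 22 to 54.1, a log2 fold change of 0.29 and an adjusted p of 0.461 by the edgeR test.

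RefSeq promoters (GRCh38.p14, 300 bases each) were found for 8 of the 10 members, all but *FOSL1* and *BATF3*. They were searched on both strands for TGANTCA, TGACGTCA (the cyclic AMP response element), TGATGNAA (bound by ATF and C/EBP pairs) and the CArG box of serum response factor. Of 35116 promoters of this length, 7.71% held TGANTCA, 1.85% TGACGTCA, 3.62% TGATGNAA and 1.29% the CArG box. TGACGTCA was in 1 of the 2 promoters of *MAFF* and in that of *JUND*, 1 of the 2 promoters of *ATF3* held TGATGNAA, and that of *FOSL2* held TGANTCA. None of the members' promoters held the CArG box. Variants of these motifs, and bases outside the 300, were not searched. The windows of *MAFF* (chr22:38201744-38202043, plus strand) and *ATF3* (chr1:212565157-212565456, plus strand) are shown as those of called members with a match, which is in capitals.
MAFF: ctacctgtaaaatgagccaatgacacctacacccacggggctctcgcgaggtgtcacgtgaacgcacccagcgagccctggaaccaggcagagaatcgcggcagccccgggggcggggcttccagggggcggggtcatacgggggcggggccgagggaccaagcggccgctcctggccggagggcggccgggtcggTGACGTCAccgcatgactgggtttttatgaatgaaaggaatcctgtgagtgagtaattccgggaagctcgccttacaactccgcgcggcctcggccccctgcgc
ATF3: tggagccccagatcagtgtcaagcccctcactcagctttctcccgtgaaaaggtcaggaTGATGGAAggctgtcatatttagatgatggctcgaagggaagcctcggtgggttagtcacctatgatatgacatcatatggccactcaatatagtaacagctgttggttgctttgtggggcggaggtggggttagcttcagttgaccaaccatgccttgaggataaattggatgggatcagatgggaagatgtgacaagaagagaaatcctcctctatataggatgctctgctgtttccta
The match in *MAFF* began 54 bases before the start site and that in *ATF3* began 191 bases before it. Of the members with a match, *MAFF* and *ATF3* were called higher, and *JUND* and *FOSL2* were not called.

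**Figure D2:**
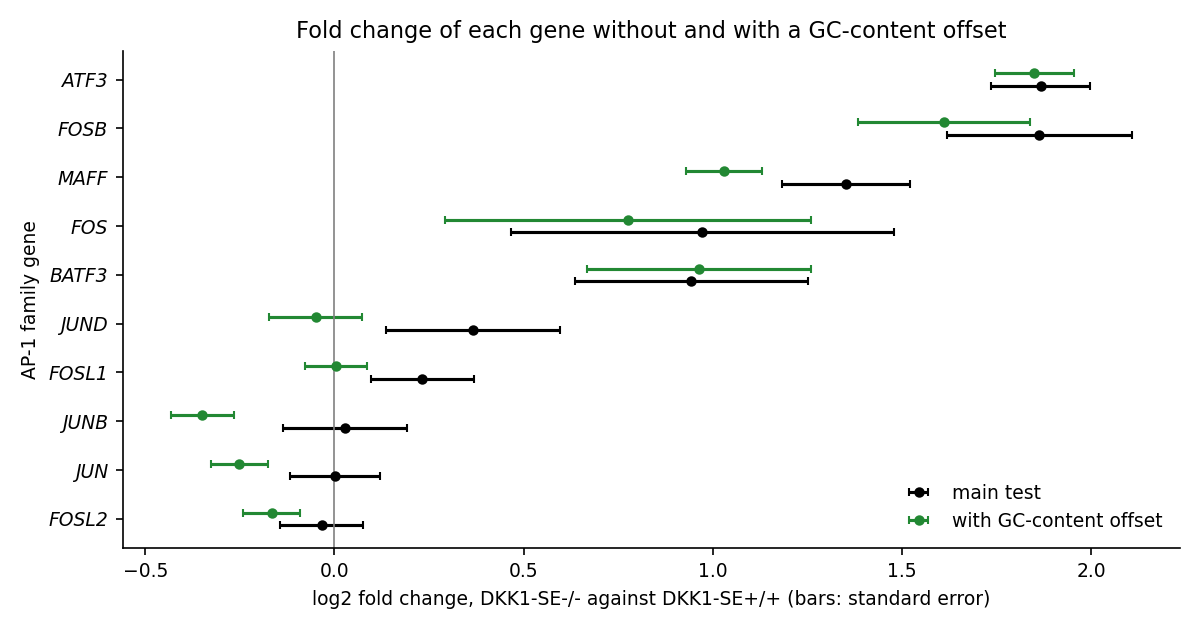
Log2 fold change of each gene, DKK1-SE-/- against DKK1-SE+/+, with its standard error, by the edgeR test without and with a GC-content offset. *ATF3*, *FOSB*, *MAFF* and *BATF3* stay above 0 in both, while *JUN* moves from 0.00 to -0.25 and *JUNB* from 0.03 to -0.35.

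GC content moved with the comparison. Across 15167 tested genes, which are not independent replicates, the log2 fold change and the GC content of the transcript had a Spearman rho of 0.40. The 3 Jun genes have GC contents of 56.1% (*JUN*), 64.9% (*JUNB*) and 69.9% (*JUND*), above the median of 48.2% of tested genes. *ATF3* (46.7%) and *BATF3* (45.6%) are below it, and their log2 fold changes with the offset were 1.85 and 0.96. *MAFF* (61.9%) had 1.35 without and 1.03 with the offset, and was called in both. The origin of the relation with GC content was not tested.

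*FOSL1* and, after it, *JUN* led the order of the levels in both groups. By mean TPM in DKK1-SE+/+ cells, *FOSL1* (346 ± 38.8) was followed by *JUN* (120.0 ± 11.2), *JUNB* (42.5 ± 5.70), *JUND* (35.5 ± 12.0) and *FOSL2* (16.8 ± 1.28; SD, n = 3 each). The ranges of *JUNB* and *JUND* over these samples overlapped, but within each DKK1-SE+/+ sample *JUNB* was above *JUND*. In DKK1-SE-/- cells *MAFF* (30.7 ± 4.46) and *ATF3* (28.8 ± 3.99) stood above *FOSL2* (14.7 ± 0.65; SD, n = 3 each), while in DKK1-SE+/+ cells they were below it at 13.5 and 10.3.

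The summed TPM of the 10 members was 516, 590.3 and 660.2 across DKK1-SE+/+ replicates 1 to 3, against 703, 610 and 579 across DKK1-SE-/- replicates 1 to 3. The groups overlapped, and an exact permutation test of 3 samples against 3 cannot go below a p of 0.1. *FOSL1* made up 58.8% ± 0.756 of the sum in DKK1-SE+/+ cells and 57.1% ± 1.23 in DKK1-SE-/- cells (SD, n = 3 each). The share of *ATF3*, *BATF3* and *MAFF* together was 4.11%, 5.01% and 4.27% across DKK1-SE+/+ replicates 1 to 3, against 9.26%, 10.2% and 10.9% across DKK1-SE-/- replicates 1 to 3. The groups stood apart in this share, while they overlapped in the sum. The share of *JUN* was 20.4% ± 0.728 in DKK1-SE+/+ cells and 17.2% ± 0.299 in DKK1-SE-/- cells (SD, n = 3 each), also without overlap. Those of *FOSL2* (means of 2.86% and 2.35% in the same order) and *JUNB* (7.21% and 6.09%) were likewise lower without overlap. For *FOSL1* the groups nearly met: the lowest DKK1-SE+/+ sample was at 58.39% and the highest DKK1-SE-/- sample at 58.36%. All are shares of the same sum, so a higher share of some members lowers that of others. Within the 7 Fos and Jun genes, the Jun subfamily held 34.3%, 35.1% and 35.9% of the TPM across DKK1-SE+/+ replicates 1 to 3, against 32.4%, 34.6% and 32.3% across DKK1-SE-/- replicates 1 to 3. These overlapped by 1 sample.

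**Figure D3:**
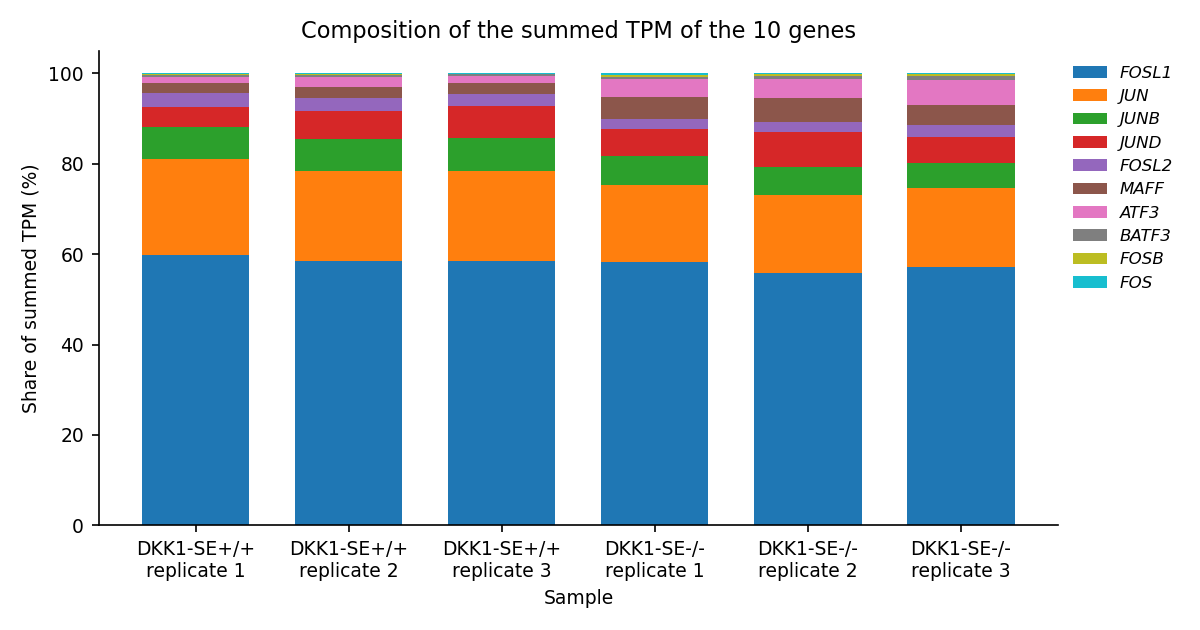
Share of each gene in the summed TPM of the 10 genes, as stacked bars that reach 100%, for each sample. *FOSL1* fills at least 55.9% of every bar, and the bands of *MAFF* and *ATF3* are wider in all 3 DKK1-SE-/- samples.

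The spread between replicates differed among the members. Among the 7 with a mean TPM of at least 10, the coefficient of variation of TPM ran from 7.61% (*FOSL2*) to 33.7% (*JUND*) in DKK1-SE+/+ cells, where the median of tested genes at that level was 7.47%, and from 4.41% (*FOSL2*) to 18.4% (*JUND*) in DKK1-SE-/- cells, where it was 13.6%. Of the members at a lower mean, *FOS* had 78.9% in DKK1-SE-/- cells, where the median of tested genes under 10 TPM was 26.1%. TPM and counts did not keep 1 ratio for every member. After scaling by sample, the ratio of count to TPM differed by a factor of 1.38 between samples for *JUND*, 1.52 for *ATF3*, 1.55 for *FOSB* and 2.48 for *FOS*, and had a median of 1.12 over 7522 genes with a mean TPM of at least 10 and no zero, a set that leaves out genes at the level of *FOS* and *FOSB*. It differed by factors of 1.03 for *JUN* and 1.01 for *MAFF*, so that the TPM of these genes followed their counts.

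The genes most alike in pattern were taken from 7562 non-member genes by the root mean square difference of centred log2(TPM + 1) over the 6 samples. For *FOSL2* they were *MCL1* (0.02), *GALNT2* (0.02) and *B4GALT1* (0.02). For *FOSL1* they were *RHOB* (0.02), *PAQR4* (0.03) and *AGRN* (0.03). For *JUND* the nearest were farther away: *INPP5K* (0.15), *MIB2* (0.16) and *METRNL* (0.16).

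Of the 37 other bZIP genes, possible partners or competitors of the family, 30 were tested by edgeR, of which 10 were called higher and 6 lower, with a median log2 fold change of 0.22. *CREB3L1*, a membrane-bound factor, had the smallest p among those called higher (log2 fold change 1.91 ± 0.21, SE), followed by *BACH2* (1.43), *ATF6B* (0.78) and *MAFK* (0.73), which encodes another small Maf protein. *NFE2L3*, a partner of small Maf proteins, was lower (-1.05 ± 0.11, SE), as did *CREM* (-1.40), *CREB1* (-0.83) and *BACH1* (-0.85).

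All 24 kinases upstream of AP-1 were tested by edgeR, of which 7 were called higher and 2 lower, with a median log2 fold change of 0.28 that was 0.16 without DKK1-SE-/- replicate 1 and 0.01 with a GC-content offset. *RPS6KA4* (0.80), *MAPK7* (0.77), *MAP2K3* (0.52) and *MAPK11* (0.56) were called higher, and *MAP3K5* (-0.80) and *RPS6KA5* (-0.70) lower. Of the 9 factors at Fos and Jun promoters, *MEF2D* (0.47) and *SRF* (0.42) were called higher, and 0 of the 9 were called with a GC-content offset. The calls of this list depended on single libraries: 3 were called higher and 5 lower without DKK1-SE-/- replicate 3, 0 were called without DKK1-SE+/+ replicate 1, DKK1-SE+/+ replicate 2 or DKK1-SE-/- replicate 1, and 1 was called higher without DKK1-SE+/+ replicate 3 or DKK1-SE-/- replicate 2. Of the 17 genes of AP-1 turnover and chromatin cofactors, 6 were called higher, led by *SMARCB1* (0.60), *CREBBP* (0.47), *HDAC3* (0.44) and *SMARCA4* (0.43), and *ARID1B* (-0.57) and *NCOR1* (-0.40) were called lower. The shares called higher in these lists lay between 22.2% and 35.3%, beside 19.8% of all tested genes. Those called lower lay between 0% and 20%, beside 19.5%. Over the alternatives the number called higher ran from 4 to 13 for the bZIP genes, 3 to 10 for the kinases and 1 to 6 for the turnover and cofactor genes. Without DKK1-SE+/+ replicate 1, 6 bZIP genes, 3 kinases and 2 turnover and cofactor genes were called higher. Without DKK1-SE+/+ replicate 2 there were 4 kinases and 2 turnover and cofactor genes, without DKK1-SE+/+ replicate 3 there were 4 kinases, and without DKK1-SE-/- replicate 3 there were 10 kinases called higher and 5 lower. The number of kinases called lower was 1 without DKK1-SE-/- replicate 1 or 2 or DKK1-SE+/+ replicate 1 or 3, and that of turnover and cofactor genes was 1 without DKK1-SE-/- replicate 1 or 2 or DKK1-SE+/+ replicate 2 or 3.

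The other immediate early genes were called in both directions, as were all tested genes (19.8% higher and 19.5% lower). Of 25 tested by edgeR, 10 were called higher (40%) and 4 lower (16%), with a median log2 fold change of 0.41. That median was 0.22 without DKK1-SE-/- replicate 1, 0.23 with a GC-content offset and 0.11 in limma on log2(TPM + 1). In that limma fit the median of all tested genes was -0.083. *DUSP1*, a phosphatase of MAP kinases, was higher by a log2 fold change of 1.46 ± 0.12 (SE), and *BTG1* (1.10), *IER5* (0.95) and *PPP1R15A* (0.73) were also called higher. *SGK1* was lower (-1.48 ± 0.11, SE), and *IER3* (-0.54), *ZFP36L1* (-0.38) and *KLF10* (-0.27) were called lower. Without DKK1-SE+/+ replicate 2, DKK1-SE+/+ replicate 3 or DKK1-SE-/- replicate 2, 2 were called lower, and over the alternatives 8 to 11 were called higher.

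Of the 31 textbook AP-1 targets, 22 were tested by edgeR, of which 14 were called higher (63.6%) and 5 lower (22.7%), with a median log2 fold change of 0.63. Without DKK1-SE+/+ replicate 2, 11 were called higher and 1 lower, and over the alternatives 11 to 14 were called higher and 1 to 6 lower. *MMP1*, the interstitial collagenase, had a TPM of 2.14 ± 0.185 in DKK1-SE+/+ cells and 30.5 ± 6.02 in DKK1-SE-/- cells (SD, n = 3 each), a log2 fold change of 3.97 ± 0.17 (SE). *LAMB3*, a laminin chain, was higher by 3.01 ± 0.12 (SE), *PLAU*, which encodes urokinase, by 1.10 and *CXCL8* by 1.65. *MMP14*, a membrane-bound metalloproteinase, was lower by 3.76 on the log2 scale, and *CDKN1A* (-0.43) and *ITGA2* (-0.57) were called lower. Beside these shares, 19.8% of all tested genes were called higher and 19.5% lower. No relation between members and targets was tested.

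Of the 11 heat shock genes, which rise when a culture is stressed, none was called higher and 4 were called lower by edgeR: *HSPD1* (-0.94), *HSPH1* (-0.71), *HSP90AA1* (-0.86) and *HSPA8* (-0.45). With a GC-content offset 8 were called lower. Their summed TPM was 5099, 4843 and 4724 across DKK1-SE+/+ replicates 1 to 3, against 2835, 3284 and 3416 across DKK1-SE-/- replicates 1 to 3, so the groups did not overlap. Mitochondrial genes took 5.48%, 6.38% and 6.28% of the counts across DKK1-SE+/+ replicates 1 to 3, against 8.58%, 7.31% and 7.40% across DKK1-SE-/- replicates 1 to 3, also without overlap. The part of these differences, and of culture handling, in the values of *FOSB* and *ATF3* was not tested.

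All 9 genes of the list of ductal epithelial markers were tested. The list held *VIM*, a mesenchymal filament gene, with a mean TPM of 4159 in the DKK1-SE+/+ and 2684 in the DKK1-SE-/- group. The keratins *KRT8* (957 and 1560 in the same order) and *KRT18* (856 and 1213) were high, and *EPCAM* (4.17 and 2.58) and *CDH1* (1.59 and 1.35) were low. *KRT19* (log2 fold change 1.83), *MUC1* (1.36), *KRT8* (0.86) and *KRT18* (0.67) were called higher, and *VIM* (-0.47), *SOX9* (-0.39) and *EPCAM* (-0.67) lower, by edgeR. Without DKK1-SE+/+ replicate 2, DKK1-SE+/+ replicate 3 or DKK1-SE-/- replicate 2, 1 gene of the list was called lower. Among all tested genes the shares called in the main test were 19.8% higher and 19.5% lower. Of 17 markers of other cells, 15 did not pass the filter on low counts. *PTPRC* and *CD3E* had at most 1 count in any sample, and *CPB1*, *INS*, *SST* and *ALB* had none. *PECAM1*, *VWF*, *CDH5*, *LUM*, *PDGFRB*, *ACTA2*, *PRSS1*, *CPA1* and *GCG* had at most 10 counts in any sample. The summed TPM of the 17 markers was 45.8, 42.7 and 47.8 in DKK1-SE+/+ cells and 70.2, 67.3 and 69.2 in DKK1-SE-/- cells, most of it from *CD68*, a lysosomal protein gene. *CD68* (0.76) and *CD14* (1.76) were called higher by edgeR, and the mean TPM of *CD14* was 0.47 in DKK1-SE+/+ and 1.36 in DKK1-SE-/- samples.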

How the data were processed

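Total RNA of 6 samples was sequenced from Illumina stranded mRNA libraries at Majorbio. For every gene the deposited table gives expected counts by sample, without normalization, of which 32.3% of values above 0 were not whole (tolerance 1e-09). TPM by sample, which the authors scaled within libraries, is deposited beside them; the authors' group means of TPM were not used. The authors' comparison columns (fold change, log2 fold change, p-value, adjusted p-value, call and direction) were not used. The submitters' processing notes name hg38. The aligner, the counting program and the annotation are not given in the sources used here.

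Expected counts were rounded and tested with edgeR 4.0.16 in R 4.3.3 (filterByExpr by group with a minimum count of 10, TMM, glmQLFit and glmQLFTest, no covariates). P-values were adjusted by the Benjamini-Hochberg method over 15179 genes, and a gene was called at an adjusted p under 0.05. The SE of a log2 fold change was its size divided by the square root of F. Sums and shares over members are given as values, with no test. The study's methods give a limit of 1.2 on the fold change without a log scale, so it was read as log2 and, as an alternative chosen after seeing the data, as a linear fold. Alternatives used DESeq2 1.42.0, limma 3.58.1 on log2(TPM + 1) and log2(TPM + 0.1), other normalizations, no filter, a replicate block, a GC-content offset in 40 bins and each sample left out. Replicates of a group differed by more than counting noise (mean chi-square per gene from 4.09 to 30.9). Positions and GC content came from GENCODE version 44 by Ensembl identifier (62625 identifiers placed), and promoters from RefSeq.

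The members and gene lists were chosen with earlier results of these data known. Named genes are all 10 members, *DKK1*, in each other list the 4 called genes with the smallest p in each direction and markers at or near 0, the 3 genes most alike in pattern to *FOSL2*, *JUND* and *FOSL1* (mean TPM of at least 10), and genes that overlap or start head to head with a member. A gene taken by this rule is not reported here. *CDKN2A*, *CDH1*, and *VIM*, *KRT8*, *KRT18* and *EPCAM* as levels, were named after their values were seen.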

Additional observations from a re-analysis of the deposited data

How the results depend on the processing

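*ATF3*, *FOSB* and *MAFF* were called higher under each of the 15 alternatives run for each member. The number of genes called was 5972, and 1314 at an unadjusted p with a limit of 1.2 on the log2 fold change. With that limit on the linear fold change, added after seeing the data, 7227 genes and 4 members (all higher) were called. Leaving out 1 sample at a time gave 4095 to 7558 genes called, 3 to 6 members called higher and 0 members called lower. With a GC-content offset 2 members were called lower, and 1 (*JUNB*) with the replicate block and the offset; the cause was not tested. *JUN* was below 0 with DESeq2 (-0.0089), RLE normalization (-0.0089), library size alone (-0.074), no filter (-0.014), the GC-content offset (-0.25), the replicate block with the offset (-0.25), and limma on log2(TPM + 1) (-0.15) and log2(TPM + 0.1) (-0.15). *JUNB* was below 0 with library size alone (-0.049), the offset (-0.35), the block with the offset (-0.35) and both limma fits (-0.14 and -0.14). *JUND* was below 0 with the offset (-0.050) and the block with the offset (-0.055). Leaving out 1 sample at a time gave -0.12 to 0.068 for *JUN*, -0.16 to 0.16 for *JUNB* and -0.12 to 0.018 for *FOSL2*.

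The replicate numbers did not pair the samples: same-numbered samples had correlations of -0.12 to -0.07, and no sample correlated best with its own number. With the replicate block 4981 genes were called, *JUN* was at -0.0037, and *BATF3* lost its call (adjusted p of 0.0613 by edgeR, range over the alternatives 0.024 to 0.122), as it did in both limma fits. The difference in the Jun share was -2.02 percentage points, -0.60 without *FOSL1* in the sum, and from -2.77 to -1.61 with 1 sample left out. The log2 ratio of the summed TPM was 0.10 (0.013 to 0.19 with 1 sample left out). In limma on log2(TPM + 0.1) the median of all genes was -0.11, against 0.03, and 36.2% of calls were higher, against 50.5%.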
